A study of Mus musculus with 12 samples.

Results

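The genes described here encode the subunits of the oxidative phosphorylation machinery that come from nuclear DNA. They were chosen by symbol alone: every row of the deposited expression table whose mouse symbol begins with Ndufa, Ndufb, Ndufc, Ndufs or Ndufv and a digit (complex I), is Sdha to Sdhd (complex II), begins with Uqcr or is Cyc1 (complex III), is Cycs (cytochrome c), begins with Cox4 to Cox8 (complex IV) or begins with Atp5 (complex V), without pseudogenes. This gave 84 genes of 15720 gene identifiers in the table: 34 of complex I, 4 of complex II, 9 of complex III, cytochrome c, 18 of complex IV and 18 of complex V. Ndufa4 and Ndufa4l2 were counted with complex IV, to which the Ndufa4 protein is now assigned. Usmg5 was counted with complex V because RefSeq calls it Atp5md. Cox7a2l, an assembly factor of respiratory supercomplexes, and Atp5s, known as coupling factor B, carry matching symbols and stayed in, although neither is a core subunit. Ndufa13, Cox8b, Cox8c and the subunits encoded in mitochondrial DNA are not analysed here.

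The cells were EMS404, a single mouse hepatic stellate cell line. Stellate cells are the vitamin A-storing pericytes of the liver, which become matrix-producing myofibroblasts on activation. The line is of C57Bl6 background, carries human TLR4 and was immortalized with SV40, and all 4 groups share these features. A scrambled siRNA or an siRNA against Bmal1 (gene symbol Arntl), a transcription factor of the core circadian clock, was transfected. Cells received 10 ng/mL TGFb, the main profibrotic cytokine of this cell type, or vehicle 48 h later, and treatment ran for 24 h. Each of the 4 combinations had 3 RNA-seq libraries, 12 in all. Although the triplicates are described as biological, separate cultures are not named in any label, and p-values therefore measure the spread among these libraries, some of which may be technical.

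Levels are in FPKM (fragments per kilobase of transcript, scaled by the authors to library size). FPKM summed to between 445472 and 483957 per library, and the depth in reads is unknown. Of 12 stellate and myofibroblast markers 10 had rows, each reaching at least 1.23 FPKM in some library; Lrat and Reln are not analysed here. Leukocyte and hepatocyte markers with rows were low, with highest maxima of 0.15 FPKM for Lyz2 and 0.49 for Apoa1. Among endothelial markers Pecam1 reached 0.13 and Tek 3.09. Of 4 ductal markers, Krt19 reached 5.61, Sox9 3.61, Krt7 2.74 and Epcam 0.28, so 3 of them were above the lowest stellate marker maximum. Arntl, the siRNA target, was at 5.43, 5.19 and 4.91 FPKM in the scrambled vehicle libraries, 10.5, 10.8 and 10.9 with TGFb, 3.90, 3.87 and 3.59 with Bmal1 siRNA and vehicle, and 5.05, 4.01 and 4 with Bmal1 siRNA and TGFb. With Bmal1 siRNA under vehicle it fell by 0.37 on the log2 scale (limma, adjusted p = 0.0490), a call that was lost when any of 10 of the 12 libraries was left out (adjusted p up to 0.210). Under TGFb Arntl fell by 1.13 (limma, adjusted p = 1.38e-06).

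Oxidative phosphorylation takes place in the inner mitochondrial membrane. Complexes I and II feed electrons from NADH and succinate to ubiquinone, complex III passes them to cytochrome c, and complex IV passes them from cytochrome c to oxygen. Complexes I, III and IV pump protons, and complex V, the ATP synthase, uses the proton gradient to make ATP. All complexes except II mix subunits from both genomes, and the nuclear subunits are made in the cytosol and imported. The nuclear factors best known to act on their promoters are NRF1, the ETS factor GABP, YY1 and the estrogen-related receptors, with PGC-1 coactivators; Bmal1 itself binds E-boxes as a dimer with Clock.

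RefSeq promoter windows of 300 bases (250 before and 50 after the annotated start; build GRCm38.p6) were found for 67 of the 84 genes, 72 windows in all. They were searched on both strands for the core letters of the motifs of those factors. GCGCATGCG (NRF1) was in 12.5% of the members' windows, against 1.75% of all 32851 windows and 3.74% of those of genes tested here. AAGATGGCG (YY1) was in 9.72%, against 1.40% of all and 3.16% of tested genes' windows. TCAAGGTCA (ERR) was in 2.78%, against 0.423% and 0.253%. CCGGAAGT (ETS, GABP) was in 6.94%, against 3.89% and 8.51%, and the E-box CACGTG in 9.72%, against 7.15% and 10.1%. None of these motifs contains another, and a match describes the letters only. With TGFb under scrambled siRNA, 7 of 9 tested members with the NRF1 letters fell, against 40 of 56 without. The counts were 5 of 5 and 42 of 60 for ETS and 4 of 7 and 43 of 58 for YY1. They were 2 of 2 and 45 of 63 for ERR and 4 of 6 and 43 of 59 for the E-box. Of all tested genes 29.1% fell, and a link of motif and response was not tested. The 5 stretches that follow are examples of the ETS, NRF1, ERR and E-box letters. Of these members Uqcrh and Uqcr11 fell furthest in complex III, Atp5g3 and Cox6a1 also fell, and Ndufv1 was not called. Each lies upstream of annotated exons, is written on the gene's own strand (minus strand for all 5), and has the motif in capitals. Where a complement is named below, the reverse complement is meant, the letters of the opposite strand in its reading order. Matches in the rest of a window are not shown, and the window of Uqcr11 also holds the NRF1 letters.
Uqcrh, chr4:116075072-116075268, CCGGAAGT read as its complement: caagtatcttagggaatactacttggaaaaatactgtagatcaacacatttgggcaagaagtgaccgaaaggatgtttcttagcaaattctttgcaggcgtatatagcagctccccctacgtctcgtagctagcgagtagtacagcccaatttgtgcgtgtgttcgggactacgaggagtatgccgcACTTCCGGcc
Uqcr11, chr10:80406831-80407071, CCGGAAGT: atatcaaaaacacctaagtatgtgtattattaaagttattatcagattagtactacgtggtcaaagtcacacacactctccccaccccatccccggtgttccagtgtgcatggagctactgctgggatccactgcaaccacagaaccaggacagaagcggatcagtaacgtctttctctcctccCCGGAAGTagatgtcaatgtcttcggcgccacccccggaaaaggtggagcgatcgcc
Cox6a1, chr5:115348982-115349129, GCGCATGCG and, overlapping it, its complement: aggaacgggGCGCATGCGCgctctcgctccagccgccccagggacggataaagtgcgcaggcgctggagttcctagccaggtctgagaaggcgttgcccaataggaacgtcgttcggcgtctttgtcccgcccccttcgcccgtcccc
Atp5g3, chr2:73911327-73911576, CACGTG, then TCAAGGTCA read as its complement: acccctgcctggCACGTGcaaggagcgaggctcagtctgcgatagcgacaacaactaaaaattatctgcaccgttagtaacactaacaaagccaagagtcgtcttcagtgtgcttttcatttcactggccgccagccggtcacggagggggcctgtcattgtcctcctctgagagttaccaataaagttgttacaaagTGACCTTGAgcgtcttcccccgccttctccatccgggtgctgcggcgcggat
Ndufv1, chr19:4012807-4013005, CACGTG: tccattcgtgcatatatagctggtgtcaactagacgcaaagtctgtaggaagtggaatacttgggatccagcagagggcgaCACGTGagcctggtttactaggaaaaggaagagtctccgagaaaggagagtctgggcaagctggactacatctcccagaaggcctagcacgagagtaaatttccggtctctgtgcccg

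Transcripts of the oxidative phosphorylation subunits were abundant in these cells. Of the 84 genes 77 had a mean over all libraries of at least 10 FPKM and 33 of at least 100. The highest were Cox6a1, a structural subunit of complex IV, with a mean of 630.4 FPKM, Atp5b, the catalytic beta subunit of ATP synthase, with 465, and Cox8a, the small ubiquitous subunit VIII, with 458. Cox4i2, Cox6b2 and Cox7b2, isoforms known from lung, testis and other specialised tissues, were below the filter of a mean of 0.5 FPKM, with maxima of 0.17, 0.19 and 0.08 FPKM. The other 81 genes were tested. Of the summed FPKM of all gene identifiers, these 81 made up 2.18% ± 0.086 (SD, n = 3) in the scrambled vehicle group and 1.91% ± 0.049 with TGFb. With Bmal1 siRNA the share was 2.10% ± 0.0058 under vehicle and 2.05% ± 0.091 under TGFb.

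The summed level of the 81 tested genes ranged from 10881 FPKM in library 1 of the scrambled vehicle group down to 8122 in library 1 of the scrambled TGFb group. Library 2 of the Bmal1 TGFb group, with 9922, was above both others of its group (8824 and 9420). In bulk RNA, fewer cells of a kind and less RNA per cell cannot be told apart.

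TGFb with scrambled siRNA lowered most of these transcripts by a small amount. Of 81 tested members 54 fell and 3 rose (limma on log2(FPKM + 1), Benjamini-Hochberg adjusted p under 0.05 over all 11208 genes tested), where 29.1% of all tested genes fell and 16.4% rose. The median change was -0.22 on the log2 scale, against -0.05 over all genes. The falls ranged from 7.70% to 42.9% on that scale, and 2 of the 54 exceeded 1.5-fold. The 2 groups of libraries did not overlap for 61 of the 81 members, and 55.0% of all tested genes behaved in that way. In the main fit 74 of 81 members lay below 0, against 58.0% of all tested genes. The direction was kept under each of 3 other scalings, with 71 or 72 members below 0. The count of falls is less firm: it was 35 with median-of-ratios scaling (where 49.1% of all calls were rises, against 36.1%), 33 without library 1 of the scrambled TGFb group and 34 without library 1 of the scrambled vehicle group. Of all 11208 tested genes 2553, 2818 and 3018 fell in these settings, against 3264 in the main fit. Of the 57 calls, 33 held in every setting tried.

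**Figure D1:**
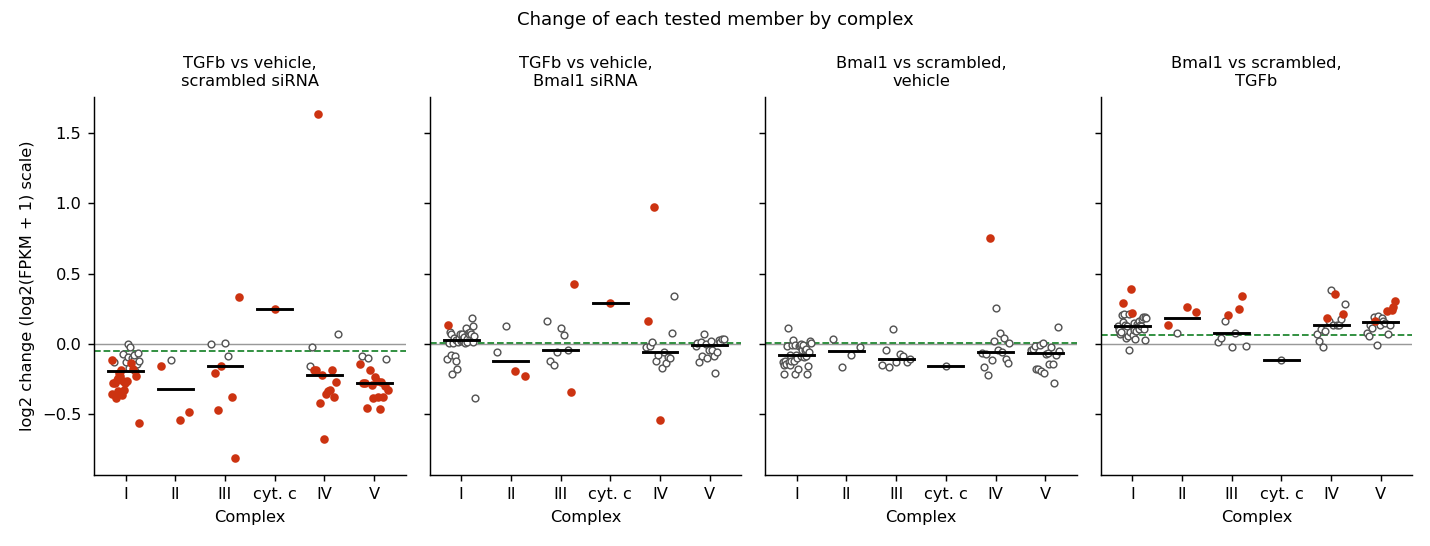
Log2 change (vertical axis, log2(FPKM + 1) scale) of each of the 81 tested members in 4 comparisons, one panel each, grouped by complex along the horizontal axis. Filled red points passed the test, open points did not, black bars are the median of a complex and the dashed green line the median of all tested genes. With scrambled siRNA 54 red points lie below 0 and 3 above; with Bmal1 siRNA the TGFb panel has 4 below and 5 above.

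In complex I, 20 of 34 subunits fell and the other 14 were not called; the median change was -0.19. The 7 core subunits, which hold the flavin and the iron-sulfur clusters, had a median of -0.13 with 3 falls, and the 27 accessory subunits a median of -0.23 with 17 falls. The difference between these classes was not tested. Ndufv3, an accessory subunit next to the flavin-bearing tip, moved most: it was at 102, 101 and 108 FPKM with vehicle and at 56.3, 80.5 and 75.7 with TGFb. The groups do not overlap, although the TGFb libraries spread widely, and Ndufv3 fell by 0.56 on the log2 scale (SE 0.15, adjusted p = 0.00663).

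Ndufa3, a small membrane-arm subunit, fell by 0.39 on the log2 scale (SE 0.09, adjusted p = 0.00464), from 213, 192 and 214 to 139.7, 168 and 167 FPKM. Ndufb11, another membrane-arm subunit, whose transcript shares 117 exon bases with Rbm10, fell by 0.36 on the log2 scale (SE 0.08, adjusted p = 0.00292). All libraries with TGFb lay below all libraries with vehicle for both genes. By contrast, Ndufv1, the flavin-binding core subunit, was at 55.8, 54.97 and 51.8 with vehicle and 50.97, 50.8 and 53.4 with TGFb, and Ndufb9 at 110.0, 99.1 and 106 and 94.03, 110.1 and 112. Their groups overlapped, and neither was called; both were chosen as examples after their values were seen.

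Complex II, succinate dehydrogenase, is encoded wholly in the nucleus and also belongs to the citric acid cycle. Its 2 membrane anchors changed more than its catalytic pair. Sdhc was at 115, 106 and 104 FPKM with vehicle and 71.5, 76.9 and 74.4 with TGFb. Sdhd was at 45.9, 44.4 and 46 and 32.6, 31.2 and 33.1. Both groups were tight and far apart: Sdhc fell by 0.54 on the log2 scale (SE 0.06, adjusted p = 4.92e-06) and Sdhd by 0.48 on the log2 scale (SE 0.05, adjusted p = 4.44e-06), and both calls held in every setting.

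The flavoprotein Sdha was at 50.5, 51.3 and 52.1 FPKM with vehicle and 45.7, 47.4 and 45.1 with TGFb, and fell by 0.15 on the log2 scale (SE 0.05, adjusted p = 0.0144). That call was lost without library 3 of the vehicle group (adjusted p = 0.0511) or library 3 of the TGFb group (0.0572), and with median-of-ratios scaling (0.0998). The iron-sulfur protein Sdhb overlapped between groups, at 78.6, 68.6 and 66.4 and 65.9, 69.5 and 61.2, and was not called (log2 change -0.12, adjusted p = 0.275). The ratio of Sdhc to Sdha, both per length, was 2.11 ± 0.15 (SD, n = 3) with vehicle and 1.61 ± 0.043 with TGFb, and that of Sdhc to Sdhb 1.52 ± 0.051 and 1.14 ± 0.070. Neither ratio overlapped between the 2 groups, with a lowest vehicle value of 1.47 and a highest TGFb value of 1.21 for Sdhc to Sdhb.

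Complex III held the largest fall of any tested member and 1 of the 3 rises. Uqcrh (chr4:116066965-116075071, minus strand, GENCODE M21 on mm10), the acidic hinge protein that helps cytochrome c dock, was at 95.8, 91.5 and 87.2 FPKM with vehicle and 52.9, 52.7 and 49.8 with TGFb. It fell by 0.81 on the log2 scale (SE 0.08, adjusted p = 3.33e-06). Uqcrq (chr11:53427922-53430831, minus strand), the small ubiquinone-binding subunit VII, went the other way, from 53.4, 41.3 and 45.1 to 55.3, 59.9 and 60.5, and rose by 0.33 on the log2 scale (SE 0.07, adjusted p = 0.00235). Neither gene's groups overlapped, and both calls held in every setting. The ratio of Uqcrh to Uqcrq, both per length, was 1.98 ± 0.22 (SD, n = 3) with vehicle and 0.887 ± 0.067 with TGFb.

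The other complex III members lay between these. Uqcr11, the smallest subunit, fell by 0.47 on the log2 scale (SE 0.07, adjusted p = 8.06e-05), from 183, 172 and 165 to 118, 134 and 122 FPKM. Uqcrfs1, the Rieske iron-sulfur protein, fell by 0.37 on the log2 scale (SE 0.05, adjusted p = 2.88e-05), from 45.5, 42.3 and 43.1 to 32.6, 33.95 and 33.8. Uqcr10 and Uqcrb fell by less, at log2 changes of -0.21 and -0.15, and lost the call when any of 7 or 8 libraries was left out. Cyc1 (cytochrome c1) and the core proteins Uqcrc1 and Uqcrc2 were not called, with log2 changes of 0.00, 0.01 and -0.09. Of the electron-carrying pair Uqcrfs1 and Cyc1, Cyc1 stood at 114, 96.1 and 93.7 with vehicle and 102, 99.7 and 102 with TGFb.

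Cytochrome c itself rose. Cycs was at 25.6, 20.2 and 23.96 FPKM with vehicle and 28.1, 27.8 and 27.2 with TGFb, a rise of 0.25 on the log2 scale (SE 0.08, adjusted p = 0.0192); the lowest TGFb library lay above the highest vehicle library. The call was lost without library 2 of the vehicle group (adjusted p = 0.0889) or library 1 of the TGFb group (0.0521).

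**Figure D2:**
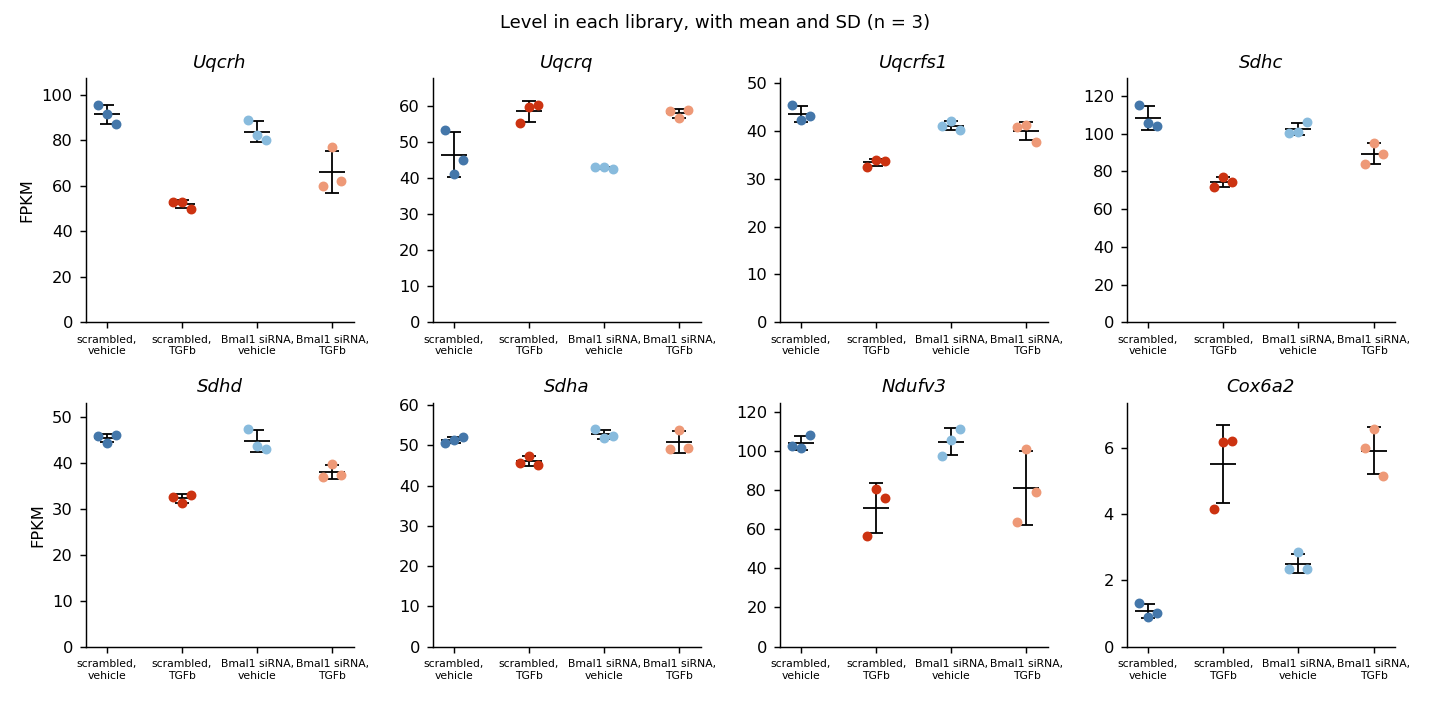
FPKM (vertical axis, from 0) of 8 members in each of the 12 libraries, by group along the horizontal axis; points are libraries, in replicate order, and black bars the mean with SD (n = 3). Uqcrh, Sdhc and Sdhd are lower with TGFb under either siRNA, Uqcrq and Cox6a2 are higher, and Uqcrfs1 is lowest in the group with scrambled siRNA and TGFb.

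In complex IV, 11 of 15 tested members fell, 1 rose and 3 were not called. Among the 11 ubiquitous subunits 9 fell, with a median of -0.22. Cox6b1, which faces the intermembrane space and helps hold the complex as a dimer, fell by 0.42 on the log2 scale (SE 0.06, adjusted p = 0.000106), from 351, 313 and 324 to 226, 258 and 253 FPKM. Cox8a fell by 0.38 on the log2 scale (SE 0.07, adjusted p = 0.000761), from 561, 484 and 497 to 370.1, 415 and 399. These 2 calls held in every setting. Cox4i1, the largest nuclear subunit, was at 306, 283 and 285 and 246, 271 and 268 and was not called (log2 change -0.15, adjusted p = 0.0730); it shares 154 exon bases with Emc8.

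The tissue isoforms of complex IV moved apart from each other. Cox6a2 (chr7:128205435-128206387, minus strand), the heart and skeletal muscle form of subunit VIa, was at 1.32, 0.900 and 1.02 FPKM with vehicle and 4.16, 6.18 and 6.22 with TGFb. It rose by 1.64 on the log2 scale (SE 0.13, adjusted p = 5.09e-07), the largest change of any member, while its ubiquitous counterpart Cox6a1 went from 776, 643 and 681 to 577, 640.4 and 628. Cox6a1 fell by 0.18 on the log2 scale (SE 0.07, adjusted p = 0.0398), lost when any of 7 libraries was left out (up to an adjusted p of 0.152). Cox6a2 stayed a small part of the pair: it was 0.153% ± 0.015 (SD, n = 3) of the summed FPKM of both with vehicle and 0.884% ± 0.15 with TGFb. None of the 6 muscle markers Myh6, Myh7, Actc1, Acta1, Ckm and Mb reached 1 FPKM in any library, the highest being Acta1 with 0.23. Cox6a2 shares 70 exon bases with Itgad, and the part of that overlap was not tested.

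Cox7a1, the muscle form of subunit VIIa, was near the detection limit: 0.250, 0.900 and 1.15 FPKM with vehicle, and with TGFb 0.26 in 1 library and listed at 0 in the other 2. It fell by 0.67 on the log2 scale (SE 0.18, adjusted p = 0.00687) in limma, although the highest TGFb library lay just above the lowest vehicle library. Its counterpart Cox7a2 fell by 0.36 on the log2 scale (SE 0.09, adjusted p = 0.00501), from 77.8, 61.8 and 65.4 to 49.5, 56.5 and 52.96. Cox7b, whose testis isoform was below the filter, fell by 0.33 on the log2 scale (SE 0.06, adjusted p = 0.000719). Ndufa4, which sits in complex IV, fell by 0.27 on the log2 scale (SE 0.06, adjusted p = 0.00209), from 137, 135 and 132 to 111, 110.0 and 114. Its hypoxia-linked paralog Ndufa4l2 stayed at or below 0.94 FPKM in all 12 libraries and was not called in any comparison.

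Complex V had the highest share of falls, 15 of 18, with a median of -0.28; whether complexes differ from each other was not tested. In the F1 head, which carries the catalytic sites, 4 of 5 subunits fell. The catalytic beta subunit Atp5b was the one not called, at 509, 463 and 460.0 FPKM with vehicle and 448, 453 and 445 with TGFb (log2 change -0.09, adjusted p = 0.148). The smallest F1 subunit, Atp5e (epsilon), fell by 0.46 on the log2 scale (SE 0.08, adjusted p = 0.000627), from 87.2, 68.9 and 71.6 to 51.4, 57.6 and 55.4. All 3 genes of the proton-carrying c ring fell, Atp5g3 the most, by 0.38 on the log2 scale (SE 0.07, adjusted p = 0.000397), from 275, 242 and 247 to 204, 194 and 187.

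The c ring genes encode the same mature protein, so their shares can be read side by side. With vehicle Atp5g1, Atp5g2 and Atp5g3 made up 26.3% ± 0.47, 44.7% ± 0.51 and 29.0% ± 0.32 (SD, n = 3) of their summed FPKM, and with TGFb 28.2% ± 0.24, 44.6% ± 1.7 and 27.1% ± 1.6. All 5 small membrane subunits of ATP synthase fell, with a median of -0.38; they lie where ATP synthase forms dimers along the cristae. Atp5k (subunit e) went from 79.6, 67.8 and 72.2 to 53.3, 47.4 and 57.9 FPKM and fell by 0.46 on the log2 scale (SE 0.08, adjusted p = 0.000349). Of the 4 peripheral stalk subunits 3 fell.

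Under vehicle, Bmal1 siRNA changed 1 of 81 members, where 0.660% of all tested genes changed. Cox6a2 rose by 0.76 on the log2 scale (SE 0.13, adjusted p = 0.0291), as 0.294% of all tested genes did. Its level went from 1.32, 0.900 and 1.02 FPKM with scrambled siRNA to 2.33, 2.85 and 2.34 with Bmal1 siRNA, without overlap. The call was lost when any of 6 libraries was left out, with the largest adjusted p, 0.195, without library 2 of the Bmal1 vehicle group. Limma called 0 members lower, where 0.366% of all tested genes were. At an unadjusted p under 0.05, 16 were lower (19.8% of members, against 10.7% of all tested genes). With array weights limma called 9 members lower, and 772 of all 11208 tested genes, against 41 genes in the main fit.

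The members lay slightly below scrambled siRNA under vehicle. Their median was -0.08, against 0.01 for all genes, and 67 of 81 were below 0, although 54 and 56 were so with quantile normalization and scaling to equal totals. Of all tested genes 47.5% were below 0 in the main fit. The member with the smallest p in each complex without a call was Ndufa10 in complex I (log2 change -0.15, adjusted p = 0.0995), Sdhb in complex II (-0.16, 0.264), Uqcrc1 in complex III (-0.13, 0.154) and Atp5g3 in complex V (-0.21, 0.116). Cycs was at -0.16 (adjusted p = 0.260). The groups did not overlap for 22 of 81 members, where 31.7% of all tested genes did not. Without library 1 of the scrambled vehicle group, the highest in these transcripts, the members' median minus that of all genes went from -0.085 to -0.033.

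Under TGFb the 2 siRNAs differed in the other direction. Of 81 members 17 rose with Bmal1 siRNA, against 16.0% of all tested genes, and limma called 0 lower, against 7.16%; no member was lower at an unadjusted p under 0.05 either. The members' share of rises, 21.0%, is thus near the background. The median was 0.14, against 0.06 for all genes, and 75 of 81 lay above 0 (66 with median-of-ratios scaling), where 66.4% of all tested genes did in the main fit. The groups did not overlap for 32 of 81, against 39.2% of all tested genes.

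The number of rises rested on single libraries. It was 5 without library 2 of the Bmal1 TGFb group, where 1202 of all 11208 tested genes rose, against 1794 in the main fit. It was 6 without library 1 of the scrambled TGFb group (1203 genes) and 29 without library 1 of the Bmal1 TGFb group (2031 genes). With median-of-ratios scaling it was 5 (997 genes), where 46.4% of all calls were rises against 69.1%. The rises of Ndufb4, Sdhc, Sdhd, Uqcrfs1 and Uqcrh held with any library left out. Ndufb4, an accessory subunit of the membrane arm, was at 70.99, 77.7 and 81 FPKM with scrambled siRNA and TGFb and at 93.5, 107 and 101 with Bmal1 siRNA and TGFb. It rose by 0.39 on the log2 scale (SE 0.06, adjusted p = 0.000894), and the groups were well apart.

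Uqcrh, low at 52.9, 52.7 and 49.8 FPKM with scrambled siRNA and TGFb, was at 59.9, 76.9 and 61.9 with Bmal1 siRNA and TGFb, a rise of 0.34 on the log2 scale (SE 0.08, adjusted p = 0.00863). Uqcrfs1 rose by 0.25 on the log2 scale (SE 0.05, adjusted p = 0.00247), to 40.9, 41.3 and 37.8, close to its 41.02, 42.1 and 40.2 with Bmal1 siRNA and vehicle. Sdhc rose by 0.26 on the log2 scale (SE 0.06, adjusted p = 0.00487), to 83.9, 94.9 and 89.3, and Sdhd by 0.23 on the log2 scale (SE 0.05, adjusted p = 0.00507), to 36.95, 39.8 and 37.4. For all 4 genes every library with Bmal1 siRNA lay above every library with scrambled siRNA.

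The other 12 rises were lost when 1 or more libraries were left out. In complex I these were Ndufa3 (0.29, adjusted p = 0.0419) and Ndufb5 (0.22, adjusted p = 0.0285), in complex II Sdha (0.14, adjusted p = 0.0467) and in complex III Uqcrb (0.20, adjusted p = 0.0226). In complex IV they were the supercomplex factor Cox7a2l (0.35, adjusted p = 0.0191), Ndufa4 (0.21, adjusted p = 0.0196) and Cox6b1 (0.18, adjusted p = 0.0499). In complex V they were Usmg5 (0.31, adjusted p = 0.0197), Atp5s (0.26, adjusted p = 0.0256), Atp5o (0.24, adjusted p = 0.0226), Atp5k (0.23, adjusted p = 0.0493) and Atp5f1 (0.16, adjusted p = 0.0475). Each lost its call without library 2 of the Bmal1 TGFb group, where the adjusted p was 0.0515 for Ndufa4 and 0.164 for Atp5f1. Ndufb5 shares 616 exon bases with Mrpl47. Atp5o shares 356 with an overlapping annotated gene and 243 with a coding gene also listed as Atp5o. Reads on these bases cannot be told apart here.

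**Figure D3:**
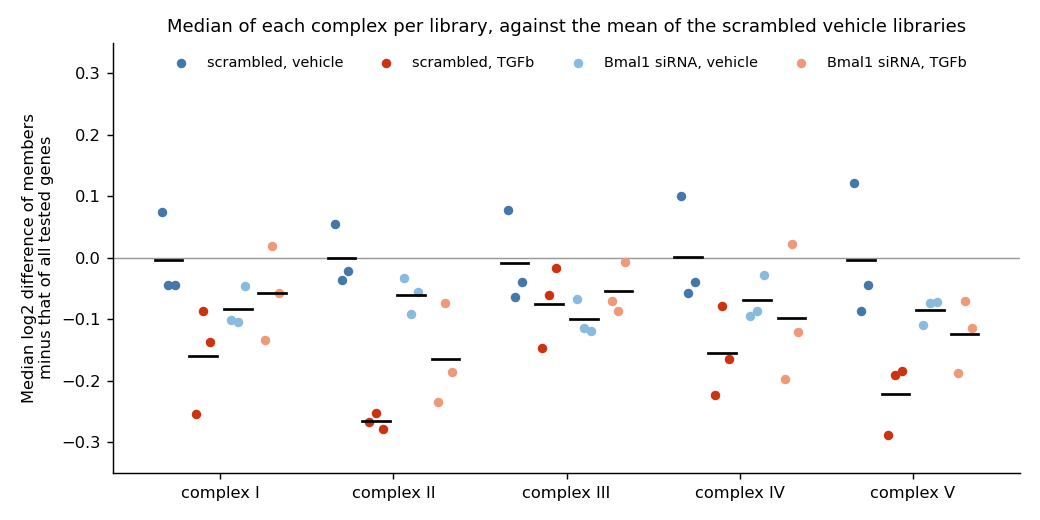
Median log2 difference of each complex's tested members from their mean in the scrambled vehicle group, minus the same median over all tested genes (vertical axis), for each of the 12 libraries; colours are the 4 groups and black bars group means. Complex II shows the clearest separation of the scrambled TGFb group (mean -0.27), whereas in complex III (-0.075) that group overlaps the others.

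With Bmal1 siRNA, TGFb changed few of these transcripts. Of 81 members 5 rose and 4 fell, where 8.90% and 10.1% of all tested genes did, and the median was 0.01, against 0.00 over all genes. The groups did not overlap for 22 of 81, against 35.4% of all tested genes. The rises were Cox6a2, Uqcrq, Cycs, Cox5a and Ndufa10, and the falls Cox7a1, Uqcrh, Sdhd and Sdhc. Without library 2 of the Bmal1 TGFb group 11 members fell, and without library 3 of that group 1 did. Of all 11208 tested genes 1725 and 676 fell in these 2 fits, against 1130 in the main fit.

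Cox6a2 went from 2.33, 2.85 and 2.34 FPKM to 5.99, 6.57 and 5.16 and rose by 0.98 on the log2 scale (SE 0.13, adjusted p = 0.000294). Uqcrq went from 43.1, 43.1 and 42.6 to 58.6, 56.6 and 58.9 and rose by 0.43 on the log2 scale (SE 0.07, adjusted p = 0.00148). Sdhd went from 47.4, 43.6 and 43.04 to 36.95, 39.8 and 37.4 and fell by 0.23 on the log2 scale (SE 0.05, adjusted p = 0.00612). These 3 calls held in every setting, and none of the 3 genes had overlapping groups.

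The other 6 calls each depended on at least 1 library. Uqcrh went from 88.9, 82.4 and 79.9 FPKM to 59.9, 76.9 and 61.9 and fell by 0.34 on the log2 scale (SE 0.08, adjusted p = 0.00915), a call lost without library 3 of the Bmal1 TGFb group (adjusted p = 0.0533). Sdhc fell by 0.19 on the log2 scale (SE 0.06, adjusted p = 0.0259), lost when any of 4 libraries was left out (up to 0.116), and Cycs rose by 0.29 on the log2 scale (SE 0.08, adjusted p = 0.0201), lost for any of 3 (up to 0.102). Cox7a1, at 0.790, 1.27 and 1.14 and 0.510, 0.490 and 0.250, fell by 0.54 on the log2 scale (SE 0.18, adjusted p = 0.0463), lost for any of 6 (up to 0.173). Cox5a, a subunit of the matrix side of complex IV, and Ndufa10 stood at the threshold, and their calls were lost for 8 and 10 libraries. In complex V Atp5k had the smallest p and was not called (log2 change -0.21, adjusted p = 0.0839).

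The 2 TGFb comparisons share no library. Across the 81 members their log2 changes had a Pearson correlation of 0.89 and a Spearman correlation of 0.72. Across all 11208 tested genes they were 0.75 and 0.63, and these describe genes, which are not independent. Cox6a2, at 1.64 and 0.98, lies far from the other members (next highest with scrambled siRNA 0.33) and weighs on the Pearson value. A value without it was not computed. The order of members was thus similar with either siRNA, with Cox6a2 and Uqcrq at the top and Uqcrh, Ndufv3 and Cox7a1 at the bottom, and the members' changes lay higher with Bmal1 siRNA.

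**Figure D4:**
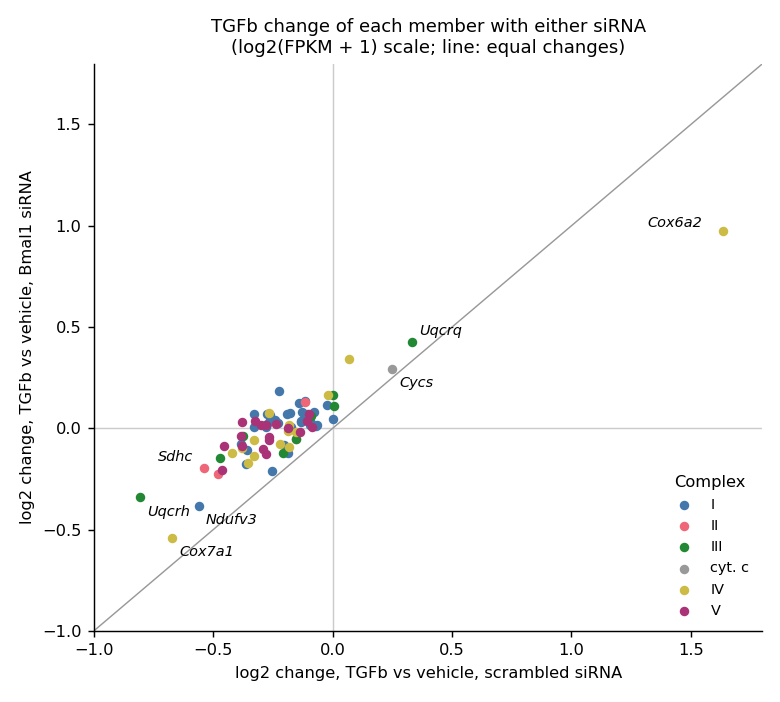
Log2 change with TGFb under scrambled siRNA (horizontal axis) and under Bmal1 siRNA (vertical axis) for the 81 tested members, on the log2(FPKM + 1) scale; each point is a gene, coloured by complex, and the grey diagonal marks equal changes. Of the 81 points 80 lie above the diagonal and Cox6a2 lies below it.

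The interaction, the TGFb change with Bmal1 siRNA minus that with scrambled siRNA, was positive for 80 of 81 members, where 62.3% of all tested genes were above 0. Limma called 16 members positive, against 8.86% of all tested genes, and 1 negative, against 5.52%. The median was 0.19, against 0.06 over all genes. Ribosomal protein genes also lay to the positive side: 81 of 82 cytosolic ones (median 0.17) and 74 of 78 mitochondrial ones (0.17) were above 0. Short coding sequences did so as well: of all tested genes with up to 300 coding bases 18.1% were called positive (median 0.20) and of those above that and up to 600 bases 14.1% (0.14), where 5 of 23 and 7 of 37 members of these lengths were (0.27 and 0.19). The difference between the members and these genes was not tested. With each of 3 other scalings 77 of 81 members stayed above 0, but the positive calls changed in number. With median-of-ratios scaling 5 members and 577 of all 11208 tested genes were positive, where 42.3% of all calls were positive against 61.6%. With scaling to equal totals 8 members and 565 genes were, against 16 members and 993 genes in the main fit. The members' positive calls ranged from 6 without library 2 of the Bmal1 vehicle group to 25 without library 1 of the Bmal1 TGFb group. Of all tested genes 566 and 1193 were positive in these 2 fits.

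Uqcrh had the largest positive value, 0.47 (SE 0.11, adjusted p = 0.0155). Its call held in every setting, as did those of Ndufb4, Ndufa4, Sdhc and Uqcrfs1, with 0.40 (SE 0.09, adjusted p = 0.0112), 0.34 (SE 0.08, adjusted p = 0.0146), 0.34 (SE 0.08, adjusted p = 0.0120) and 0.33 (SE 0.07, adjusted p = 0.00624). In Uqcrfs1 and Ndufb4 the TGFb change was near 0 with Bmal1 siRNA (log2 -0.04 and 0.07), while in Uqcrh and Sdhc a smaller fall was still called. The negative value was that of Cox6a2, -0.66 (SE 0.18, adjusted p = 0.0298), whose rise was smaller with Bmal1 siRNA from a higher vehicle level; it was lost when any of 6 libraries was left out, with adjusted p-values up to 0.0818, that without library 2 of the Bmal1 vehicle group.

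The remaining 11 positive calls were lost when 2 or more libraries were left out, one at a time. Ndufs7, a core subunit that carries an iron-sulfur cluster, had 0.41 (SE 0.10, adjusted p = 0.0214), with levels of 95.4, 77.3 and 81.7, 67.9, 76.3 and 72.5, 68.8, 71.9 and 77.4 and 78.8, 82.7 and 86.1 FPKM in the scrambled vehicle, scrambled TGFb, Bmal1 vehicle and Bmal1 TGFb groups; without library 3 of the last group the adjusted p was 0.0544. Ndufa2, which shares 66 exon bases with Tmco6, had 0.35 (SE 0.10, adjusted p = 0.0367). Atp5g3 had 0.34 (SE 0.09, adjusted p = 0.0281) and Uqcr11 0.33 (SE 0.10, adjusted p = 0.0374). Uqcrq, which rose with TGFb under both siRNAs, had an interaction of 0.10 (adjusted p = 0.579) and was not called.

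Subunits of this machinery are short proteins, and the change with TGFb under scrambled siRNA went with coding length. Of 23 members with a coding sequence of up to 300 bases 19 fell, with a median of -0.36; of 37 up to 600 bases 24 fell (-0.21), of 12 up to 1200 bases 7 fell (-0.16) and of 9 longer ones 4 fell (-0.10). The same gradient was present over all tested genes, of which 47.7%, 36.6%, 31.2% and 26.2% fell in these classes, with medians of -0.18, -0.12, -0.07 and -0.02. The members' share was the higher one in each class, a description with no test. The Spearman correlation of change with coding length was 0.37 over the 81 members and 0.15 over the 11197 tested genes with a coding length. The length taken is that of a gene's longest annotated coding sequence, and FPKM per gene does not separate shorter forms. Within this gradient Ndufv3, with 1404 bases so counted, and Sdhc and Sdhd, with 507 and 477, fell further than most members of their length. Uqcrq, with 246, rose. The part of transcript length in the falls was not tested.

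**Figure D5:**
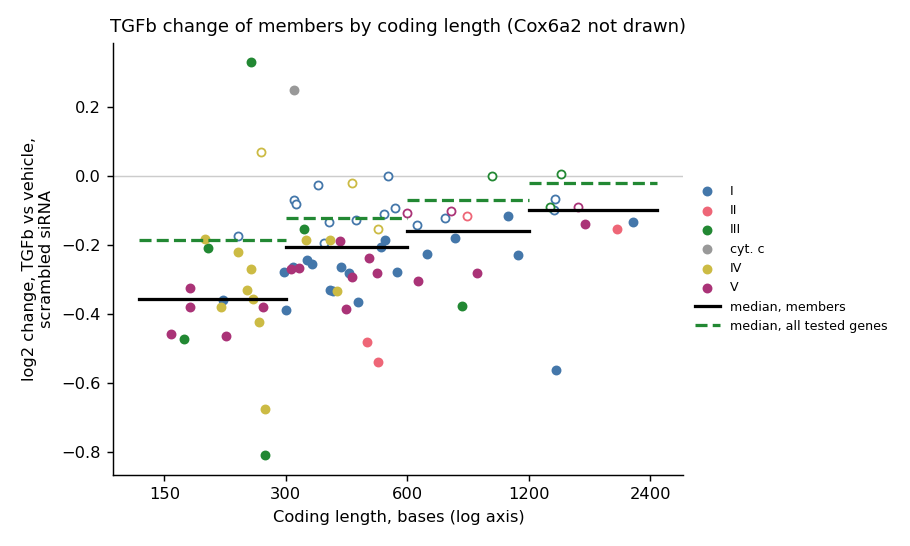
Log2 change with TGFb under scrambled siRNA (vertical axis) against coding length in bases (horizontal log axis) for the tested members except Cox6a2; filled points passed the test and open points did not, and colours are complexes. Solid bars are the members' median in 4 length classes (-0.36, -0.21, -0.16 and -0.10) and dashed green bars that of all tested genes (-0.18, -0.12, -0.07 and -0.02).

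Genes around the complexes were read against the same background for TGFb with scrambled siRNA, 29.1% of all tested genes lower and 16.4% higher. Among assembly factors of complex IV 9 of 24 fell and the other 15 were not called, with Pet100 at a log2 change of -0.73 (adjusted p = 0.000230) and Cox19 at -0.62 (8.51e-05). Among those of complex I, 3 of 16 fell and 3 rose, with Dmac1 at -0.46 and Ndufaf4 at 0.35. Of the factors for complexes II and III, Sdhaf1 (-0.25) and Uqcc3 (-0.47) fell out of 4 and 6, and Ttc19 of complex III (0.44) and Tmem70, 1 of 3 for complex V (0.27), rose. Citric acid cycle enzymes had 6 of 14 falls, with Idh3b at -0.32 and Suclg2 at -0.29. Mitochondrial ribosomal proteins had 19 of 78 falls and 3 rises, with a median of -0.06, and cytosolic ribosomal proteins 10 of 82 falls, also with a median of -0.06.

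Of 13 tested regulators of mitochondrial biogenesis 2 rose and the other 11 were not called: Myc (log2 change 0.63, adjusted p = 0.00260) and Gabpb1, a GABP subunit (0.29, 0.00370). Glycolysis genes had 5 of 21 falls with scrambled siRNA, with Eno2 at -0.79 and Aldoc at -0.78, and 2 rises, of Pfkp (0.58) and Hk2 (0.56), named after their values were seen. With Bmal1 siRNA they had 6 of 21 falls, where 10.1% of all tested genes fell, and no rises, with a median of -0.32. Under vehicle Bmal1 siRNA changed 1 of 21 glycolysis genes, where 0.660% of all tested genes changed. It was Hk2, the inducible hexokinase (limma, log2 change 0.36, adjusted p = 0.0492). Of the 21 genes 18 lay above 0, with a median of 0.20, against 52.5% and 0.01 over all tested genes. The groups did not overlap for 15 of 21, against 31.7% of all tested genes. On the interaction, where 8.86% of all tested genes were positive, complex IV assembly factors had 7 of 24 positive calls, among them Pet100 (0.65) and Cox19 (0.50), mitochondrial ribosomal proteins 11 of 78 and cytosolic ribosomal proteins 3 of 82, while glycolysis had 2 of each sign, with Hk2 at -0.79.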

How the data were processed

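The 12 libraries hold RNA of EMS404 cells. Per the labels' protocols, RNA was extracted with 1 of 2 kits according to sample abundance, samples of low RNA integrity were discarded and libraries were built at BGI. The kit used for each library was not given in the sources used here. Expression values are FPKM, deposited by the authors in 1 table, per the file headers. The submitters' processing notes list RSEM, DESeq2, HISAT2 2.0.4 and Bowtie2 2.2.5, with mm10 as the build and no role for any tool. The authors' annotation, strand setting and sequencing depth were not given in the sources used here. Since FPKM is relative to library size, a change in abundant genes shifts all others, and counting error cannot be read from it.

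Of 16290 lines 555 had no identifier (1.304% to 1.464% of FPKM) and were left out; 15 identifiers came up again, and their line with the higher mean was kept. Symbols, coordinates, exons and coding lengths (the longest per gene) came from GENCODE M21 on mm10, which held 15694 of the identifiers. Of the 84 members 29 share exon bases with another annotated gene, 25 of them with a coding one. Overlaps were counted on either strand, and reads on the shared bases cannot be told apart here.

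The test was limma 3.58.1 (R 4.3.3; trend option, 1 mean per group, all 12 libraries, two-sided) on log2(FPKM + 1). It covered the 11208 genes whose mean FPKM reached 0.5, and a call needed a Benjamini-Hochberg adjusted p over all of them under 0.05. Changes on this scale understate those of low genes. The fit was tested on simulated data. The written design named RPKM; FPKM takes the same test. Groups came from the sample titles. The members and lists were chosen with earlier results of these data known. Named with values were, per complex and comparison, the 3 called members with the largest change in each direction (or, with none, that with the smallest p), the isoform pairs, up to 10 members called on the interaction, the 3 most abundant members, those below the filter, and up to 2 called genes of each other list; others are named as examples. Alternatives were other scalings, pseudocounts and filters, a replicate block, other limma options, only the groups compared, and leaving out libraries. Figures were drawn with matplotlib.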

Additional observations from a re-analysis of the deposited data

Results flagged for a closer look

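For 17 members the TGFb change differed between the siRNAs, by limma's test of the interaction term (TGFb change with Bmal1 siRNA minus that with scrambled siRNA, on the log2 scale, adjusted over all 11208 genes), where 14.4% of all tested genes passed. In complex I these were Ndufs7 (0.41), Ndufb4 (0.40), Ndufa2 (0.35), Ndufb5 (0.30), Ndufa11 (0.28) and Ndufa10 (0.25). In complex II they were Sdhc (0.34) and Sdhd (0.25), and in complex III Uqcrh (0.47), Uqcrfs1 (0.33) and Uqcr11 (0.33). In complex IV they were Ndufa4 (0.34), Cox6b1 (0.30) and Cox6a2 (-0.66), and in complex V Atp5g3 (0.34), Atp5o (0.32) and Atp5d (0.29). Of the 17, those of Ndufa4, Ndufb4, Sdhc, Uqcrfs1 and Uqcrh passed in every setting tried.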

How the results depend on the processing

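No member that was called changed direction under any alternative. Of the calls, 33 of 57 for TGFb with scrambled siRNA, 0 of 1 for Bmal1 siRNA under vehicle, 4 of 17 for Bmal1 siRNA under TGFb, 3 of 9 for TGFb with Bmal1 siRNA and 5 of 17 on the interaction passed in all settings. The members called lower for TGFb with scrambled siRNA numbered 35 with median-of-ratios scaling. Of all 11208 tested genes 2553 were lower there, against 3264 in the main fit. For Bmal1 siRNA under vehicle, 0 were called higher with a pseudocount of 5 or with no filter on low values. Over all genes 27 of 11208 and 1 of 15720 were, against 33 in the main fit. With array weights 9 members were lower, and 772 of all tested genes, against 41 genes in the main fit. For Bmal1 siRNA under TGFb, 5 were higher with median-of-ratios scaling, 43 with array weights, 8 with only the groups compared and 4 without both second TGFb libraries. Over all tested genes 997, 3470, 989 and 922 were higher in these settings, against 1794 in the main fit. For TGFb with Bmal1 siRNA, 3 were higher with a pseudocount of 0.1, without trend, with limma's robust option or with only the groups compared. With array weights 12 were higher. Over all tested genes 981, 940, 997, 722 and 2694 were higher in these settings, against 998 in the main fit. Lower were 20 members with array weights (2819 of all tested genes) and 13 without both second TGFb libraries (1729), against 4 (1130) in the main fit. On the interaction, 5 were positive with median-of-ratios scaling, 8 with equal totals or no filter, 10 without trend and 28 with array weights. Over all tested genes 577, 565, 808 (of 15720 without the filter), 902 and 2429 were positive, against 993 in the main fit. With a pseudocount of 5 or no filter 0 members were negative, where 608 and 584 of all tested genes were. The causes were not tested.

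Leaving out each library in turn gave, for TGFb with scrambled siRNA, 33 to 56 lower and 2 to 3 higher, for Bmal1 siRNA under vehicle 0 to 1 higher, for Bmal1 siRNA under TGFb 5 to 29 higher, for TGFb with Bmal1 siRNA 2 to 8 higher and 1 to 11 lower, and on the interaction 6 to 25 positive and 0 to 1 negative. The median of the members minus that of all genes ranged from -0.21 to -0.12, -0.11 to -0.03, 0.03 to 0.13, -0.04 to 0.04 and 0.10 to 0.20 in the same order. Calls over all 11208 genes moved as well. In the fits with the lowest and highest member counts, 2818 and 3477 genes fell for TGFb with scrambled siRNA. For Bmal1 siRNA under TGFb 1202 and 2031 rose, for TGFb with Bmal1 siRNA 676 and 1725 fell, and on the interaction 566 and 1193 were positive.

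The groups share replicate numbers, and the labels tie no number to a culture or day. Of 18 same-numbered pairs 8 had a correlation of deviations over 0.1 (range -0.16 to 0.47). Differently numbered pairs ranged from -0.41 to 0.24. All 3 pairs were over it between the scrambled TGFb and Bmal1 vehicle groups (0.42, 0.22 and 0.20), which are not compared, and in none of the 4 comparisons. In 20 of 36 cases, each a choice among the 3 libraries of another group, a library correlated best with its own number. The cases share correlations and are not independent, so this is only a hint from the data that some pairing may exist, and it was not tested. With the replicate number as a block, the calls over all genes for Bmal1 siRNA under vehicle went from 33 higher and 41 lower to 244 and 296, with the members' count the same. Of the members, 52 members fell and 3 rose for TGFb with scrambled siRNA, 16 rose for Bmal1 siRNA under TGFb, 6 rose and 5 fell for TGFb with Bmal1 siRNA, and 17 were positive and 1 negative on the interaction. Over all 11208 tested genes, in the same order, 3414 fell and 1946 rose, 2038 rose, 1216 rose and 1340 fell, and 1195 were positive and 698 negative. Depth is unknown, so the counting error of members under 1 FPKM, such as Cox7a1, cannot be given.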
